A study of Mus musculus with 6 samples.

Results

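The immediate early and dissociation response genes were examined as a list of 36 symbols, of which 33 had a probe set annotated to that symbol alone on the arrays, out of 12393 genes measured. Csrnp1, Dusp5 and Cd69 had no such probe set and were not analysed here. Where a gene had several such probe sets, the brightest on average was read, and levels are log2 of the deposited intensity. The arrays held RNA of conventional dendritic cells (DCs), antigen-presenting cells sorted by flow cytometry as CD11c-positive from spleen or lymph nodes. All mice were of the inbred strain BALB/c. There were 3 arrays per organ, numbered 1 to 3 in the labels, and no group carried a treatment or a genetic change. The labels give neither the age of the mice nor how the organs were brought into suspension, and they do not say whether arrays came from separate animals or pools. The p-values therefore rest on array-to-array spread alone, and that spread may be technical.

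Immediate early genes are switched on within minutes of a stimulus without new protein synthesis. MAP kinases and calcium signals activate factors that already sit in the cell, such as SRF with its ELK partners and CREB, and these start transcription of Fos, Jun, Egr and Nr4a genes. The products are themselves mostly transcription factors, or proteins that end the response: phosphatases that switch off MAP kinases, proteins that degrade mRNA and inhibitors of NF-kB. Many of the mRNAs are short-lived. In dendritic cells they mark sensing of microbes or cytokines, and in cells from solid organs they are also known to be induced by digestion and handling of the tissue before sorting.

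Array medians lay between 39.4 and 41.3 intensity units on the linear scale, and the number of arrays limits the precision. Itgax, which encodes CD11c, was at 9.74 to 10.97 on all 6 arrays. This sorting marker itself was 1.96-fold lower in the arrays labelled spleen (-0.97 ± 0.17 SE, limma adjusted p = 0.0310), and Ciita, the regulator of MHC class II genes, was 2.72-fold lower (adjusted p = 0.0196). The migratory DC gene Ccl22 was at 9.34 ± 0.07 in the arrays labelled spleen and at 4.37 ± 0.28 in those labelled lymph node (SD, n = 3 each), and Ccr7 and Fscn1 were also higher in the former (limma adjusted p = 7.93e-05, 0.0496 and 0.00946 for the 3 genes). Migratory DCs are known from lymph nodes, so these genes go against the labels, and groups are therefore named by label only. Every difference is labelled spleen minus labelled lymph node. These are bulk samples, in which fewer cells of a type and less RNA per cell cannot be told apart.

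Most early response genes shared their lowest array within each group. In both groups the array numbered 3 was the lowest of its 3 arrays for 27 of the 33 genes (81.8%), as it was for 12.7% of all genes and 17.8% of the genes above the median level. Array 1 was lowest in both groups for 0 of the 33 and array 2 for 1, against 10.5% and 14.4% of all genes. The median deviation from the group mean was 0.42, 0.13 and -0.58 log2 units for arrays 1, 2 and 3 labelled lymph node. Those labelled spleen had medians of 0.24, 0.55 and -0.63. Over all genes the median deviations lay between -0.03 and 0.04 on the 6 arrays. That array 3 is singled out follows from seeing these values, and no test was made of it.

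The most frequent highest array differed by group. Array 1 was highest among the arrays labelled lymph node for 27 of the 33 genes (81.8%, against 31.4% of all genes), and array 2 among those labelled spleen for 23 (69.7%, against 27.7%). Array 1 was highest in both groups for 7 genes (21.2%, against 10.4% of all genes) and array 2 for 4 (12.1%, against 11.0%). By a stricter rule, array 3 had to lie at least 1 log2 unit below the next array in both groups. Among all 12393 genes 34 met it (0.274%), and 9 of these were among the 33: Fos, Fosb, Atf3, Maff, Egr2, Ier2, Nr4a1, Nr4a2 and Rhob. Of the 51 probe sets that the annotation gives to the 33 genes, 37 were lowest on array 3 in both groups.

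**Figure D1:**
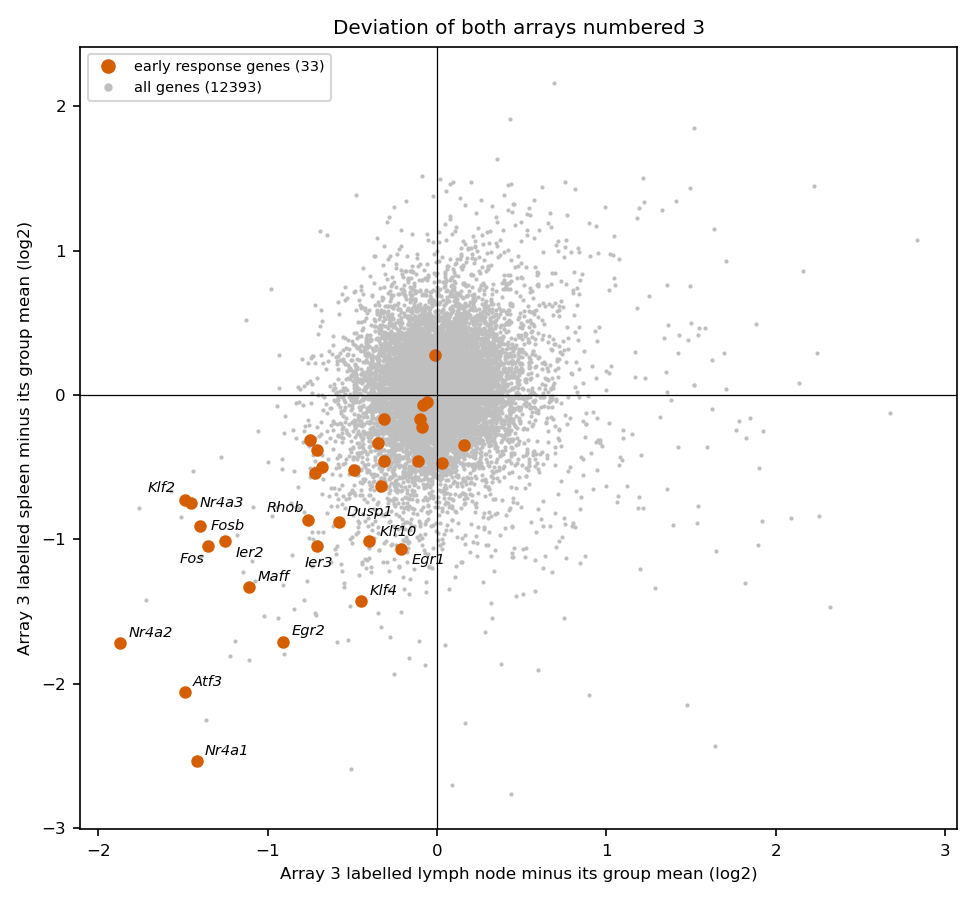
Deviation of array 3 from its group mean in log2 units, for arrays labelled lymph node (horizontal axis) and labelled spleen (vertical axis); orange points are the 33 early response genes and grey points all 12393 genes. Nr4a1, Atf3 and Nr4a2 lie at the lower left, at -1.42 and -2.54, -1.49 and -2.06, and -1.87 and -1.72.

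The promoters of the 33 genes were searched for motifs, of which the CREB recognition core TGACG is a known element of NR4A and FOS promoters. The 250 bases upstream of the RefSeq transcription start (assembly GRCm38.p6, matched by symbol) were searched on both strands, and 27 of the 33 genes had an entry. Egr1, Egr3, Ier2, Klf10, Myc and Nfkbiz had none. The core TGACG, read as CGTCA on the other strand, was found upstream of 15 of the 27 genes (55.6%), against 27.0% of the 9887 array genes with an entry and 17.8% of all 32851 promoter windows. A gene with several starts was counted if any window held the motif. The full palindrome TGACGTCA, which contains the core on both strands, was found in 4 of 27, namely Maff, Dusp1, Btg2 and Ppp1r15a (2.53% of array genes). The EGR site, searched as GCGGGGGCG or GCGTGGGCG, was in 8 (29.6% against 5.98%), the CArG box bound by SRF in 2 (7.41% against 1.60%) and the kappa B site in 7 (25.9% against 10.5%). The AP-1 site TGACTCA was in 0 of 27, and in 4.99% of array genes. A match is a run of letters in this window and was not tested as a binding site. Whether matches go with the order of the arrays was not tested either. All 15 genes with the core were lowest on array 3 in both groups. Rhob, lowest on array 3 by the stricter rule, held 0 copies of the core. So did Jun, Jund, Fosl2, Dusp2, Klf6, Ier3 and Zfp36, also lowest on array 3 in both groups. Ier5, Zfp36l1, Gadd45b and Nfkbia, which were not lowest on array 3 in both groups, held 0 copies as well. Btg1, which was nearly flat, held 2.

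The upstream sequences below are of the 3 NR4A genes, Fos and Atf3, which deviated far on array 3, and Dusp1, which holds the full palindrome; they run 5′ to 3′ on the strand of the gene, and capitals mark every TGACG or CGTCA.
Nr4a1 (chr15:101266596-101266845, plus strand): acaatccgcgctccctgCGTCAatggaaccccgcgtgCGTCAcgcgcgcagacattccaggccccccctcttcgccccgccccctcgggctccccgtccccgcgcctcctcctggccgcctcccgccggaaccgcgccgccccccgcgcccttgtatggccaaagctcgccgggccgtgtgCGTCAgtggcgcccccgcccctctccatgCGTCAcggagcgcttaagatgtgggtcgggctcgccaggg
Nr4a2 (chr2:57124004-57124253, minus strand): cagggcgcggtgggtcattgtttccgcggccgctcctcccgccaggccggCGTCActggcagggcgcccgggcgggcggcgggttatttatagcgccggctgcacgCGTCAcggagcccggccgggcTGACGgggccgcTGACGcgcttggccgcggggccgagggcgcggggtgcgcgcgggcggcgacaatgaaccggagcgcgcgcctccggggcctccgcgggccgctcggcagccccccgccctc
Nr4a3 (chr4:48045055-48045304, plus strand): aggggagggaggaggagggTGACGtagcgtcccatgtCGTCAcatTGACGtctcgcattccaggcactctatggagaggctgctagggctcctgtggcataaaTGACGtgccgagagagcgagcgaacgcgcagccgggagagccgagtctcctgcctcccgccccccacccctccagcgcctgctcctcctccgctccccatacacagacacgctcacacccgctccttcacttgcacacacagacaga
Fos (chr12:85473640-85473889, plus strand): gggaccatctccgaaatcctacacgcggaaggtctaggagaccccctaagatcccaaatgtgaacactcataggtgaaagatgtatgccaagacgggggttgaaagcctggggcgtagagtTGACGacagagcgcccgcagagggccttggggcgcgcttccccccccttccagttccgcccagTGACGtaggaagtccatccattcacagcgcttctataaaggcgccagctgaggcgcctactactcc
Atf3 (chr1:191183334-191183583, minus strand): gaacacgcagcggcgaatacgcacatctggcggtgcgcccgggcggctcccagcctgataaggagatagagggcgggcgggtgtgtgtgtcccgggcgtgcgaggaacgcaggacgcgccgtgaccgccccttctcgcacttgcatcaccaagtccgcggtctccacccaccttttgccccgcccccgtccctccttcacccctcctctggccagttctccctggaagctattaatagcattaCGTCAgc
Dusp1 (chr17:26508473-26508722, minus strand): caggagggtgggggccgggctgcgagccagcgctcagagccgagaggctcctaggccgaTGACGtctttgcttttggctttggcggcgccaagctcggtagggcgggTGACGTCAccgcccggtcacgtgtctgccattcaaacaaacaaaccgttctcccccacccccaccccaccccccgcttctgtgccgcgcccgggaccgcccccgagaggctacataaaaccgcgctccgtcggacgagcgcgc

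Nr4a1, Nr4a2 and Nr4a3 each held 4 copies of the core in these 250 bases. In Nr4a1 the copy nearest the start ended 36 bases upstream of it, in Nr4a2 107 and in Nr4a3 143 bases upstream. Fos held 2 copies, the nearer ending 62 bases upstream of the start, and Atf3 held 1, ending 3 bases upstream. The 3 copies counted for Dusp1 include both strands of its palindrome, at 143 to 136 bases upstream.

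The AP-1 factors are bZIP proteins that pair through leucine zippers, FOS proteins with JUN proteins. All 8 measured members, including the related Atf3 and Maff, were lowest on array 3 in both groups. Fos was at 11.27, 11.05 and 9.13 on arrays 1 to 3 labelled lymph node and at 11.11, 11.42 and 9.70 on those labelled spleen. Fosb, its close paralog, was at 10.29, 10.00 and 8.05 against 10.04, 10.46 and 8.89. Both genes thus spanned over 1.5 log2 units within each group, and their groups overlapped, with differences of 0.26 ± 0.64 (SE) and 0.35 ± 0.63. Atf3, a stress-induced repressor of inflammatory genes, was at 11.74, 11.26 and 9.26 against 10.28, 11.15 and 7.63, so that array 3 labelled spleen was 11.5-fold below array 2. Maff, a small MAF protein without a transactivation domain, was at 9.74, 9.29 and 7.85 against 9.33, 10.00 and 7.67. In both genes the 2 arrays numbered 3 were the lowest of all 6.

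The JUN genes moved less. Jun was at 12.40, 12.26 and 11.86 against 11.85, 11.91 and 11.19, with a difference of -0.52 (95% interval -1.09 to 0.05). Junb was at 6.24, 6.02 and 5.12 against 5.03, 5.09 and 4.31; its groups did not overlap, although array 3 labelled lymph node lay only just above the arrays labelled spleen. Jund, the most constantly expressed JUN gene, had means of 10.70 ± 0.31 and 10.70 ± 0.29 (SD, n = 3 each). Fosl2, which encodes FRA-2, was at 5.50, 4.94 and 4.15 against 4.09, 4.84 and 3.66. Its mean of 4.53 and that of Junb (5.3) lay below the median level of all genes, 5.46.

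The EGR proteins are zinc-finger factors that bind GC-rich sites. Egr1 was at 12.07, 11.71 and 11.57 in the arrays labelled lymph node and at 10.65, 11.05 and 9.23 in those labelled spleen. Its groups did not overlap, and the spread lay mainly in the arrays labelled spleen. Egr2 was at 11.10, 10.54 and 9.45 against 10.81, 10.42 and 8.05, overlapping, with array 3 lowest in each group; its second probe set had the same sign. Egr3 differed from both: at 5.80, 5.57 and 5.67 against 5.55, 5.51 and 5.95 it was highest on array 3 labelled spleen, and the interval of its difference was -0.43 to 0.41.

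Ier2, Ier3 and Ier5 are small early response proteins, Ier3 being an NF-kB and stress target that influences survival. All 3 had groups that did not overlap, with higher levels in the arrays labelled lymph node. Ier2 was at 8.76, 8.36 and 6.68 against 5.85, 6.65 and 4.73, a 4.56-fold difference (-2.19 ± 0.62 SE, adjusted p = 0.107) in which array 3 labelled lymph node nearly met array 2 labelled spleen. Ier3 was at 9.48, 9.03 and 8.19 against 7.92, 7.72 and 6.24, or 3.04-fold (-1.61 ± 0.49, adjusted p = 0.123). Ier5 was at 12.24, 12.12 and 11.72 against 10.90, 11.58 and 10.98, and its 3 probe sets gave differences from -1.32 to -0.70 (adjusted p = 0.0953 for the brightest).

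The NR4A proteins are orphan nuclear receptors whose activity follows their amount, Nr4a1 (NUR77) being a known reporter of antigen receptor and calcium signals in lymphocytes. They had the widest spread of the families, with a median range within a group of 2.53 log2 units among arrays labelled lymph node and 2.66 among those labelled spleen, against 0.35 and 0.50 for all genes. Nr4a1 was at 10.59, 10.03 and 8.17 against 8.64, 8.60 and 4.81, so array 3 labelled spleen was 14.2-fold below array 1. Nr4a2 went the other way between groups, at 8.25, 6.73 and 4.69 against 9.14, 9.32 and 6.65. Nr4a3 was at 8.42, 7.69 and 5.89 against 6.91, 7.35 and 6.0 by its brighter probe set, and its other probe set had the opposite sign (0.25). The 3 receptors thus shared their lowest array within groups but not the sign of the group difference: -2.25 ± 1.06 (SE), 1.82 ± 0.98 and -0.58 ± 0.63, with intervals that all include 0.

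Dusp1 and Dusp2 are nuclear phosphatases that switch off MAP kinases. Dusp1 was at 12.07, 11.73 and 11.03 against 11.77, 11.96 and 10.55, with overlapping groups. Dusp2 was lower in the arrays labelled spleen, at 5.0, 5.82 and 4.63 against 6.41, 6.69 and 5.82, a difference of -1.16 ± 0.34 (SE) that did not pass (adjusted p = 0.116). Array 3 was again lowest in both groups for both genes.

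Among the KLF zinc-finger factors all 4 were lowest on array 3 in both groups. Klf2, known for keeping lymphocytes and myeloid cells quiescent, was at 9.87, 9.74 and 7.56 against 8.46, 9.48 and 7.87. Klf4, needed for some cDC2 functions, was at 9.63, 9.24 and 8.76 against 10.41, 10.40 and 8.25, so its spread lay mainly in the arrays labelled spleen. Klf10, a TGF-beta-induced factor, was higher in arrays 1 and 2 labelled spleen, at 8.18 and 8.27, than in any array labelled lymph node (6.60, 6.82 and 6.10), but array 3 labelled spleen lay among the latter at 6.71. Klf6 had means of 11.52 ± 0.29 and 11.65 ± 0.55 (SD, n = 3 each), and 2 of its 3 probe sets were higher in the arrays labelled spleen.

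Zfp36 (tristetraprolin) and Zfp36l1 bind AU-rich elements and direct mRNAs to decay, and the BTG proteins promote deadenylation and restrain division. Zfp36 was nearly flat, at 12.08, 12.00 and 11.90 against 12.01, 12.03 and 11.69. Btg1 was flatter still, at 11.75, 11.59 and 11.54 against 11.61, 11.58 and 11.49. Btg2 differed from Btg1, at 10.95, 10.29 and 9.55 against 8.57, 9.64 and 8.54, with a difference of -1.35 ± 0.42 (SE, adjusted p = 0.126) that both of its probe sets shared. Zfp36l1 had means of 10.38 ± 0.26 and 10.98 ± 0.43 (SD, n = 3 each), and its second probe set had a difference of -0.08.

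The stress and growth genes were mixed. Gadd45b, which encodes an activator of stress kinases, had the smallest adjusted p of the list: it was at 6.87, 7.42 and 6.99 against 8.32, 7.86 and 7.84, or 1.89-fold higher in the arrays labelled spleen (0.92 ± 0.22 SE, adjusted p = 0.0651), with the same sign in all 3 probe sets. It did not follow the order of the other genes, since array 1 was the lowest of those labelled lymph node. Rhob, an early response GTPase of endosomes, was at 10.71, 10.53 and 9.48 against 9.40, 9.74 and 8.26. Ppp1r15a (GADD34), which restores translation after stress, had means of 8.26 ± 0.66 and 7.64 ± 0.42. Myc varied little, with means of 7.74 ± 0.07 and 7.37 ± 0.06 (SD, n = 3 each) and groups that did not overlap.

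The NF-kB feedback genes were both lowest on array 3 among the arrays labelled spleen, but not among those labelled lymph node. Nfkbia, the gene of the inhibitor IkB-alpha, was highest on array 3 among the arrays labelled lymph node, at 11.01, 10.88 and 11.19, and lowest on array 3 among those labelled spleen, at 11.68, 11.65 and 11.14. All 4 of its probe sets were higher in the arrays labelled spleen, with differences from 0.19 to 0.87. Nfkbiz, which encodes the nuclear IkB-zeta, had means of 10.85 ± 0.22 and 10.70 ± 0.42 (SD, n = 3 each) by its brighter probe set. Its other probe set was at 9.07, 8.86 and 8.78 against 7.94, 8.06 and 8.41, a difference of -0.77 ± 0.19 (SE) without overlap. Neither gene was lowest on array 3 in both groups, as Egr3, Ier5, Zfp36l1 and Gadd45b were not.

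**Figure D2:**
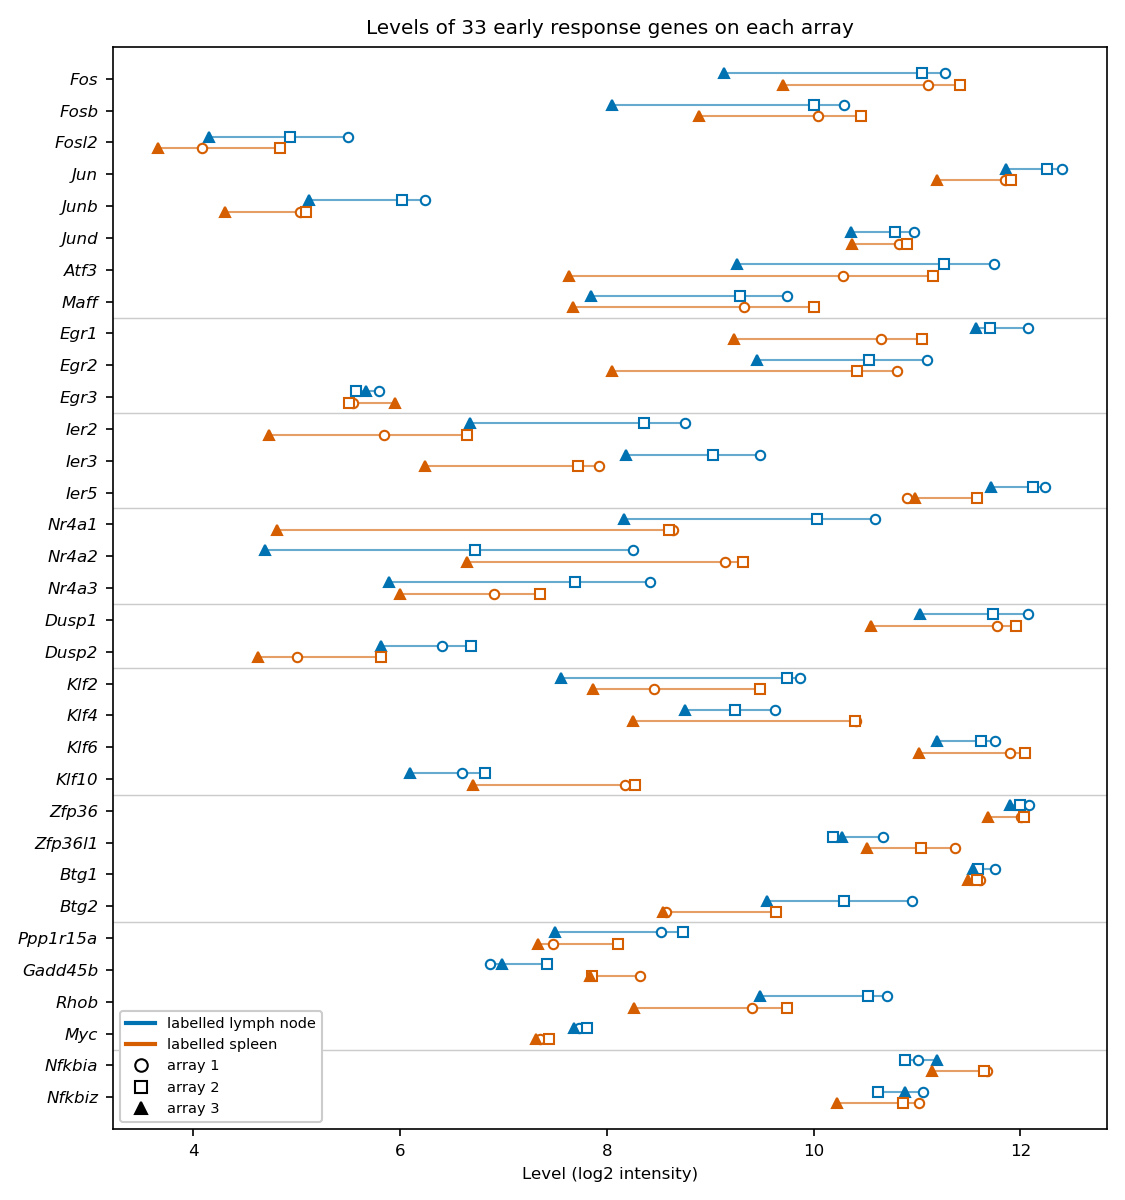
Level of each of the 33 genes (log2 intensity) on every array, grouped by family; blue marks are arrays labelled lymph node, orange marks arrays labelled spleen, and filled triangles are arrays numbered 3, with lines spanning each group. Triangles lie at the left end of both lines for 27 genes; levels should be compared within a gene only.

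The comparison of the arrays labelled spleen with those labelled lymph node asked which of these genes differ by label. In limma 0 of the 33 passed an adjusted p of 0.05, against 3.40% of all genes (2.03% higher and 1.37% lower in the arrays labelled spleen). At an unadjusted p under 0.05 there were 12, of which 9 were lower and 3 higher, or 36.4% against 19.0% of all genes. The groups did not overlap for 7 of the 33 (21.2%), against 24.5% of all genes: Junb, Egr1, Ier2, Ier3, Ier5 and Myc were higher in the arrays labelled lymph node (12.7% of all genes) and Gadd45b in those labelled spleen (11.8%). The median difference was -0.37, with 23 below and 10 above 0, against -0.01 for all genes.

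The spread between arrays of a group was large beside these differences. The pooled SD within groups had a median of 0.66 over the 33 genes and 0.25 over all genes, and 17 of the 33 (51.5%) lay in the top 5% of all genes. The median standard error of the difference was 0.41, against 0.20 for all genes. For 29 of the 33 the range within at least 1 group exceeded the difference between the groups, a share close to the 84.6% of all genes. Differences as large as 2.25 log2 units for Nr4a1 (SE 1.06) or 1.82 for Nr4a2 (SE 0.98) did not pass. Their intervals ran from -4.71 to 0.22 and from -0.45 to 4.08.

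The fit was repeated without both arrays numbered 3. These arrays were singled out from the values of the same genes, and leaving them out removes much of the spread within groups by construction, so the calls and their share describe 4 arrays and support nothing further. With 2 arrays per group left, 5 of the 33 (15.2%) passed in limma, against 3.87% of all genes. Klf10 was then higher in the arrays labelled spleen, 2.86-fold (adjusted p = 0.0203), beside 2.57% of all genes. Junb (2.10-fold, adjusted p = 0.0416), Ier2 (4.95-fold, 0.0243), Ier3 (2.70-fold, 0.0345) and Nr4a1 (3.23-fold, 0.0267) were higher in those labelled lymph node, beside 1.30% of all genes. The median difference of the 33 was -0.21 in that fit. Leaving out array 3 labelled spleen alone gave a median of -0.04 and a call on Klf10 (adjusted p = 0.0183), and leaving out array 3 labelled lymph node alone gave a median of -0.52 and a call on Ier2 (adjusted p = 0.0490). The median was -0.05 without array 1 labelled lymph node.

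**Figure D3:**
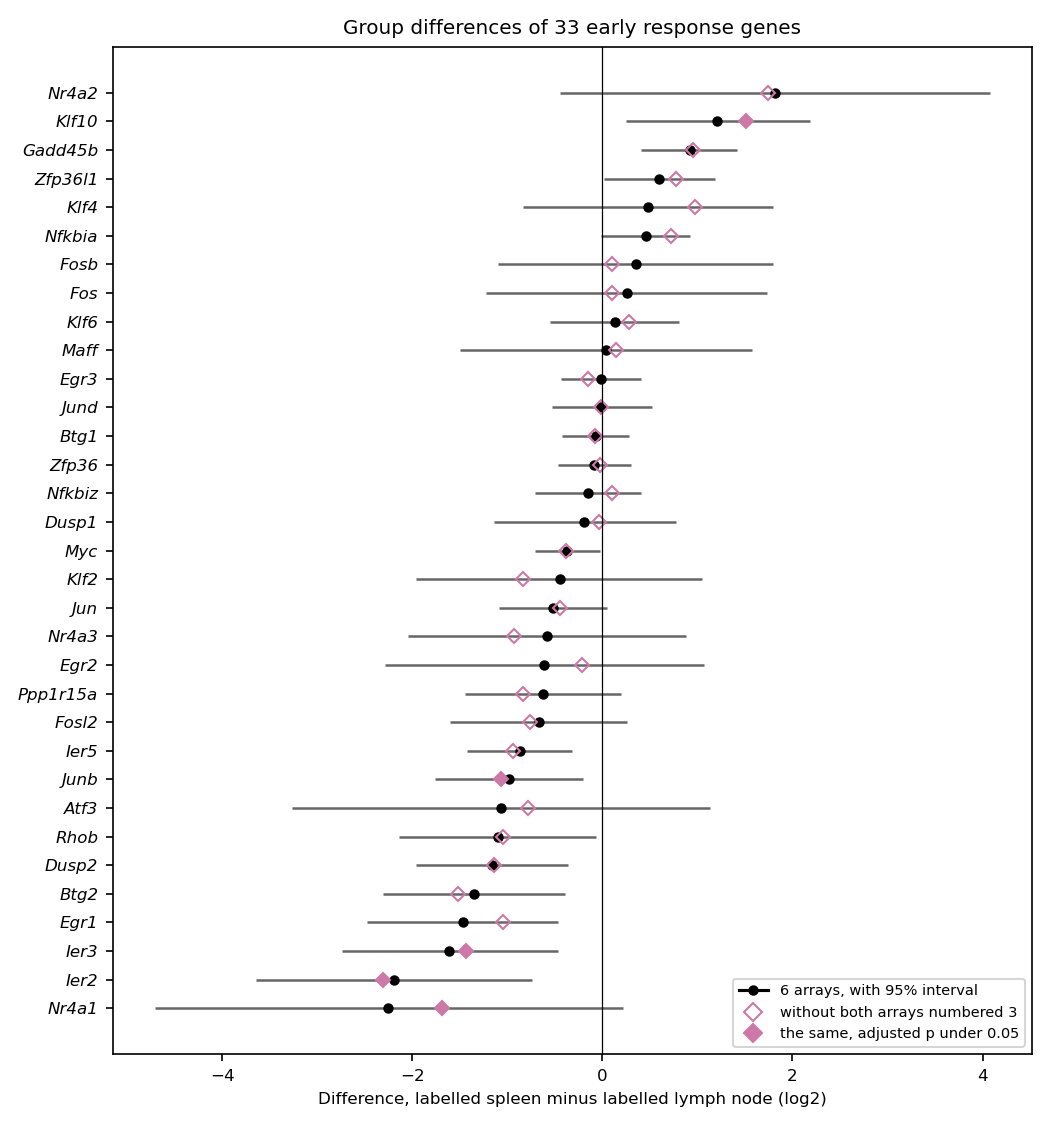
Difference of each of the 33 genes (labelled spleen minus labelled lymph node, log2) from all 6 arrays, as black points with 95% intervals, and without both arrays numbered 3, as diamonds, filled where the adjusted p was under 0.05. None of the black points passed, and the filled diamonds are Klf10, Junb, Ier3, Ier2 and Nr4a1.

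Other genes of the pathway were read from lists written down beside the 33. Of 37 further early response genes, 3 were higher and 1 lower in the arrays labelled spleen, where 2.03% of all genes were higher and 1.37% lower. At an unadjusted p under 0.05 there were 12 of the 37 (32.4%, against 19.0% of all genes). Socs3, a feedback inhibitor of cytokine signals, was 5.64-fold higher (adjusted p = 0.00550), Gadd45a 4.11-fold (0.00550) and Trib1, a pseudokinase, 2.61-fold (0.00994), while Gadd45g was 2.83-fold lower (0.0275). Gadd45a and Gadd45g, paralogs of Gadd45b, thus moved in opposite directions. The median of the 37 was 0.03. Upstream kinases and factors (0 of 17 past the threshold, 5 at an unadjusted p under 0.05, median -0.13), other bZIP partners (0 of 13, 2 unadjusted, median -0.18) and heat shock genes (0 of 11, 0 unadjusted, median -0.07) had no call in limma. Mapk14, the p38 kinase, had the smallest adjusted p among the upstream genes (-0.60 ± 0.16 SE, adjusted p = 0.0877).

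Within groups, 19 of the 37 further early response genes (51.4%) were lowest on array 3 in both groups. So were 8 of 11 heat shock genes (72.7%), 6 of 13 bZIP partners (46.2%) and 5 of 17 upstream genes (29.4%). Array 2 was highest in both groups for 72.7% of the heat shock genes and 46.2% of the bZIP partners. That share was 12.1% in the main early response list and 11.0% of all genes. The median deviation of the heat shock genes was -0.07, 0.22 and -0.25 on arrays 1 to 3 labelled lymph node. On those labelled spleen it was 0.01, 0.27 and -0.34. By the stricter rule, 0 heat shock genes were lowest on array 3. Among the 34 genes at least 1 log2 unit below the next array in both groups, 8 were further early response genes, named after their values were seen: Ptgs2, Nfil3, Rgs1, Dusp10, Pim1, Pim3, Klf9 and Bhlhe40. Ptgs2, the inducible cyclooxygenase, was at 8.75, 7.75 and 6.20 on arrays 1 to 3 labelled lymph node and at 8.79, 8.66 and 5.34 on those labelled spleen. Hspa1a, the inducible HSP70, was at 8.88, 9.99 and 8.08 against 8.07, 8.77 and 5.73, lowest on array 3 in each group. Its paralog Hspa1b was at 9.45, 10.77 and 9.51 against 8.32, 10.07 and 7.5. Array 1 was thus its lowest among the arrays labelled lymph node. The 4 further early response genes that passed between the groups were not lowest on array 3 in both groups: Socs3 was highest on array 3 in each.

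**Figure D4:**
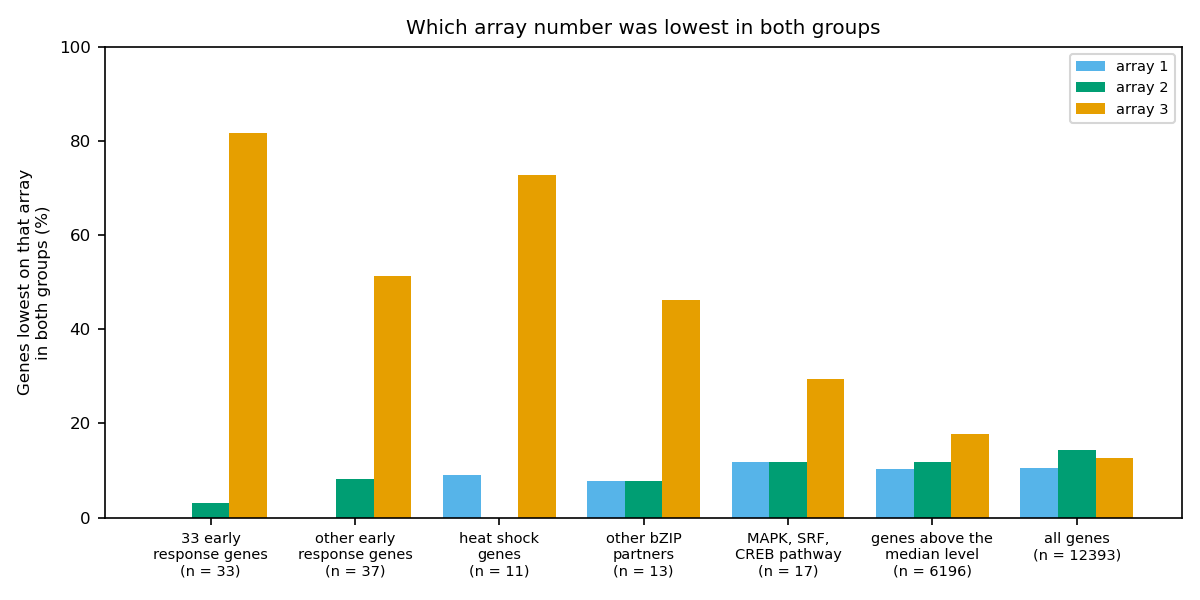
Percent of genes of each list that were lowest on array 1, 2 or 3 of both groups, with the number of genes under each list. Array 3 takes 81.8% of the 33 early response genes and 12.7% of all genes.

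Of the marker lists, only that of plasmacytoid DCs was highest on array 3 throughout, where most early response genes were lowest. Of the other marker lists 0 to 28.6% of the genes were highest on array 3 in both groups, as were 17.3% of all genes. All 8 measured plasmacytoid DC markers were highest on array 3 in both groups, and their summed linear intensity was 545, 543 and 1180 on arrays 1 to 3 labelled lymph node and 1896, 1532 and 5114 on those labelled spleen. Macrophage and monocyte markers summed to 1717, 1634 and 3248 against 2992, 3355 and 2000. NK cell markers summed to 425, 401 and 951 against 1693, 502 and 686. Both sums were highest on array 3 among the arrays labelled lymph node but not among those labelled spleen. Such sums follow the brightest genes. Lyz2 was at 11.02, 11.35 and 10.56 on arrays 1 to 3 labelled spleen, and Gzma at 9.87 on array 1. Gene by gene, 6 of the 8 macrophage and monocyte markers had a lower mean in the arrays labelled spleen and 2 a higher one. The 10 conventional DC markers summed to 24165, 24343 and 22519 against 12974, 19388 and 16319, and 0 of them were lowest on array 3 in both groups. T cell markers (8 genes) summed to 401 to 557 and 503 to 1024, B cell markers (7) to 205 to 232 and 144 to 203, neutrophil markers (7) to 184 to 723 and 69 to 136, and migratory DC markers (6) to 1441 to 1949 and 4306 to 6183. The T cell factor Bcl11b, the B cell factor Ebf1, the neutrophil genes Mmp8 and Cxcr2, and Il4i1 were under 4 on all arrays. The part of these cells in the early response pattern was not tested.

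The poly-A and Gapdh controls had groups that did not overlap, while the Actb and Trpn controls overlapped. The mean level of 24 bacterial poly-A control probe sets was 7.39, 7.80 and 7.96 on the arrays labelled lymph node and 9.02, 8.41 and 9.06 on those labelled spleen. Array 3 was the highest in each group. The groups did not overlap, and the exact two-sided permutation test gave p = 0.1, the smallest that 3 against 3 arrays allow. The level of the 3′ minus the 5′ Gapdh control was 2.60, 2.70 and 2.79 against 3.44, 3.25 and 3.14 (exact p = 0.1), highest on array 3 in the first group and lowest on it in the second. That of Actb was -0.25, -0.17 and -0.35 against -0.33, -0.18 and -0.21 (exact p = 0.8). The Trpn controls, at the bottom of the scale, differed by -0.04 (exact p = 0.7). Their part in the group differences and in the order of the arrays was not tested.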

How the data were processed

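Total RNA was amplified from 2 ng after extraction with 20 ng of carrier RNA, per the labels' protocols, and hybridised to Affymetrix arrays. The deposited values are probe set intensities on a linear scale. The submitters' processing notes name RMA and limma; their versions are not given in the sources used here. As RMA output is in log2, the authors' intensity is taken to have been turned linear again; any floor is unknown. Of 22690 probe sets, 20380 had 1 gene symbol in the array annotation and 691 several; the other 1619 include 64 controls. Symbols were checked through Entrez identifiers (20351 found, 0 changed).

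Log2 values were fitted in R 4.3.3 with limma 3.58.1 (lmFit, eBayes) over 12393 genes, two-sided, with Benjamini-Hochberg adjustment and a threshold of 0.05. Alternatives changed the scaling (median centring, quantile), the offset (16), the filter (median level), the variance model, the probe set rule, the threshold (0.01), the replicate block and the arrays included. The members and lists were chosen with earlier results of these data known. Values of every array are given for genes whose groups did not overlap with a log2 difference of at least 1, for the 3 highest and 3 lowest means, for a range of at least 2 within a group, and, chosen after their values were seen, for others the results turn on. Other lists are named by up to 4 genes with the smallest adjusted p. Co-variation is described by counts, since 3 arrays allow no correlation. The fit was tested on simulated data with independent noise for each gene and array. It recovered 38% of changes of 1 log2 unit, 82% of 2 and 98% of 3, and 2.29% of its 131 calls were false. Spread that genes share on an array was not simulated. Array number limits the precision.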

Additional observations from a re-analysis of the deposited data

How the results depend on the processing

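Of 17 alternatives, 13 moved the differences, and 22 of the 33 genes kept their sign in these 13. The other 4 (the median-level filter, which left 31 genes, trend and robust, the block and the threshold of 0.01) leave the differences as they are. The count of 0 past the threshold became 1 with the filter at the median level, with trend and robust, with the mean of all probe sets and without probe sets marked as shared between transcripts (Gadd45b with the filter and the last, Ier5 with the other two), and 5 without both arrays numbered 3. It was 0 to 1 with 1 array left out, where the median difference was -0.52 to -0.04, and the count of genes whose groups did not overlap 7 to 18 (24 without both arrays numbered 3, 72.7%). Over all genes that share also grew, from 24.5% with 6 arrays to between 30.2% and 40% with 5 and 53.5% with 4, since fewer arrays overlap less often. With the replicate number as a block, the count past the threshold was 8 of 33 (24.2%, against 4.19% of all genes). Junb, Ier2, Ier3, Nr4a1, Dusp2 and Rhob were lower and Nr4a2 and Klf10 higher in the arrays labelled spleen. The block takes up spread that same-numbered arrays share, and 27 of the 33 genes were lowest on array 3 in both groups. Much of their spread was thus removed by construction, and the standard error of Nr4a1 went from 1.06 to 0.37. These calls and their share support nothing further. Deviations of same-numbered arrays correlated at 0.02, 0.24 and 0.16 across genes. Numbers 2 and 3 each correlated best with their own number. Array 1 labelled lymph node correlated better with array 2 labelled spleen (0.13) than with its own number. The labels do not tie the numbers, so the block is not taken as a pairing. What else changed these counts was not tested.

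The count over all genes, 421, was 764 with array weights, 63 at a threshold of 0.01 and 47 to 475 with 1 array left out, namely 56 without array 1 and 47 without array 2 labelled lymph node and 130 without array 1 labelled spleen. The 4 calls in the related lists became 2 with the filter, 9 with the block, 7 without both arrays numbered 3 and 2 to 7 with 1 array left out. The count of 27 lowest on array 3 in both groups was recomputed under 6 alternatives added after seeing the data and lay between 24 and 28 (25 of 31 genes with the filter). Adding 16 before taking log2 cannot change the order of arrays, and the filter only removes genes. Differences near 0 turned sign: Jund (0.01 with median centring, 0.07 with quantile normalization), Egr3 (0.01 and 0.02), Btg1 (0.02 with quantile normalization), Maff (0.00 with array weights), Klf6 (-0.14 with the mean of all probe sets) and Nfkbiz (0.10 without both arrays numbered 3). With 1 array left out, the differences ran from -0.42 to 0.78 for Fos, -0.35 to 0.80 for Fosb, -0.52 to 0.70 for Maff, -0.18 to 0.16 for Jund, -0.15 to 0.07 for Egr3, -1.13 to 0.25 for Egr2, -0.48 to 0.25 for Dusp1, -0.06 to 0.45 for Klf6, -0.14 to 0.02 for Zfp36 and -0.31 to 0.08 for Nfkbiz.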
